A study of Drosophila melanogaster with 2 samples.

Results

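The genes that encode the protein machinery of oxidative phosphorylation were examined for binding of castor (cas), a zinc-finger protein that the neural stem cells of the fly embryo express late in their temporal sequence. All protein-coding genes on the chromosome arms of the dm6 annotation whose symbol starts with ND-, Sdh, UQCR, COX or ATPsyn were taken, which gave 88 of 13968 genes. By symbol, 40 belonged to complex I, 8 to complex II, 9 to complex III, 16 to complex IV and 15 to complex V. The prefixes reach beyond subunits proper: 63 genes were subunits, 24 were like copies whose symbol adds L to that of a subunit, and 1, Sdhaf3, was an assembly factor of complex II. The like copies include COX6AL, COX6AL2 and COX6CL, whose partner genes levy and cype carry other names and which were put in this class after their symbols had been seen. ATPsynepsilonL was also counted as a like copy, though no gene with the symbol ATPsynepsilon is among the 88.

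Chromatin immunoprecipitation with an antibody against green fluorescent protein had been carried out on whole Drosophila melanogaster embryos of 0 to 24 hours. The embryos came from a transgenic cas-GFP strain that expresses castor fused to enhanced green fluorescent protein, and the chromatin was sonicated to 200 to 800 bp. There was 1 group with 2 biological replicates, both of the tagged strain, so no comparison between conditions exists and no test over samples can be made. The sequence that drives the fusion and the cells that carry it are not stated in the labels, input libraries were not analysed here, and a peak averages over all tissues and ages of the collection.

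Oxidative phosphorylation passes electrons from NADH through complex I, and from succinate through complex II, to ubiquinone, then through complex III, cytochrome c and complex IV to oxygen. Complexes I, III and IV pump protons across the inner mitochondrial membrane, and complex V, the ATP synthase, uses the returning protons to make ATP. The genes described here are only a part of the nuclear share of these complexes, together with like copies and an assembly factor. Other nuclear subunits, such as RFeSP, Cyt-c1, levy, cype, blw and sun, have symbols outside the prefixes. A few further subunits are encoded by mitochondrial DNA. In Drosophila, many of the like copies are known as testis-biased duplicates of these genes.

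The sequences under the summits within 500 bp of an own start are shown because these peaks lie nearest to the promoters of the genes, for 9 of the 10 genes that have such a peak (ND-MWFE is not shown). Each is the longest stretch within 50 bp of the summit that overlaps no exon of a protein-coding gene, read 5′ to 3′ on the strand of the gene from the RefSeq genome of dm6. In complex I, ND-24 is shown from chrX:17632180-17632229 on the plus strand, which begins 1 base after the summit. ND-51 lies on the minus strand at chr2L:6062822-6062922 and ND-ASHI on the minus strand at chrX:6679322-6679422. The ND-B17 stretch is chr2L:15751079-15751165, that of ND-MNLL is chrX:7893807-7893907 and that of ND-SGDH is chr3L:12138747-12138847, all on the minus strand. COX5A of complex IV is read from chr3R:11819479-11819547 on the plus strand and COX6B from chrX:19744348-19744430 on the minus strand. ATPsynE of complex V lies at chr3R:14326873-14326946 on the plus strand. Capitals mark matches, on either strand, to 5 of the words searched, namely TATAAA (the TATA box letters), AAAAAA (a run of A), TATCGA (part of the DREF site), CGATAG (which overlaps the word before) and GGTCACAC (a core promoter word), within the stretch shown. In COX6B the matches to TATCGA and CGATAG overlap.
ND-24: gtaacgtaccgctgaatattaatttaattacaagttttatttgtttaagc
ND-51: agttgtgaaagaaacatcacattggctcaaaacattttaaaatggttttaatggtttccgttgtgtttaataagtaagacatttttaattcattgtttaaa
ND-ASHI: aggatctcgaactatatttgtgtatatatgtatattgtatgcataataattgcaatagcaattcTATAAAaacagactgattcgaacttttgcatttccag
ND-B17: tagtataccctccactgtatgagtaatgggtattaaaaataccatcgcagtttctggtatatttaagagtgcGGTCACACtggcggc
ND-MNLL: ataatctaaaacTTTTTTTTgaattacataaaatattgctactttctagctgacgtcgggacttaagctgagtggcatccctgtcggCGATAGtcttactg
ND-SGDH: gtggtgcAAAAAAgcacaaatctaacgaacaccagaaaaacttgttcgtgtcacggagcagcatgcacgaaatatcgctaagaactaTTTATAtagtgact
COX5A: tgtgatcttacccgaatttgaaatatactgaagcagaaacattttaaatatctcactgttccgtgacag
COX6B: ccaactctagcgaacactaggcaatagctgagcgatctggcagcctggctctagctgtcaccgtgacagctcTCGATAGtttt
ATPsynE: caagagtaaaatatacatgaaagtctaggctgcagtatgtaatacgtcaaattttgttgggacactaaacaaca
No fixed word occurs in the stretches of ND-24, ND-51, COX5A and ATPsynE. The stretch of ND-B17 holds GGTCACAC, the core of a promoter element bound by the factor M1BP, close to its end at the annotated exon.

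The deposited conservative list holds 1880 peaks that passed a threshold on the irreproducible discovery rate (IDR), which scores whether a peak keeps its rank between sets called separately, and 1879 of them lay on the arms. Signal is the authors' value for the height of a peak and is quoted as given, and its median over the peaks on the arms was 77.3, with a range of 2.07 to 1218. The pooled list holds 2237 peaks, the list of replicate 1 alone 1248 and that of replicate 2 alone 1158. Read totals are not in the lists, so depth is unknown.

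A summit of the conservative list lay in the body of, or within 2 kb of, 19 of the 88 genes (21.6%, 95% Wilson interval 14.3 to 31.3%). Among all 13968 genes the share was 20.1%, which lies inside that interval, so the set as a whole had peaks about as often as genes in general. Complex I had 10 genes of 40 (25%), complex II 2 of 8 (25%), complex III 1 of 9 (11.1%), complex IV 4 of 16 (25%) and complex V 2 of 15 (13.3%). The intervals of these shares overlap widely, from 14.2 to 40.2% for complex I and from 1.99 to 43.5% for complex III. Subunits and like copies stood further apart: 18 of 63 subunits (28.6%, interval 18.9 to 40.7%) and 1 of 24 like copies (4.17%, interval 0.739 to 20.2%) had a peak. Even so, these intervals overlap slightly, and the 20.1% of all genes lies inside both. The like copies are shorter, with a median gene length of 744 bp against 1178 bp for subunits and 2164.5 bp for all genes, and the part of gene length in the difference was not tested. By chromosome arm, peaks were found at 5 of 16 genes on 2L, 4 of 17 on 2R, 1 of 20 on 3L, 5 of 20 on 3R, 4 of 13 on X and neither of the 2 on chromosome 4. The intervals for 3L (0.888 to 23.6%) and X (12.7 to 57.6%) overlap, and both hold the 20.1% of all genes. Shares of all genes were not taken by arm.

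**Figure D1:**
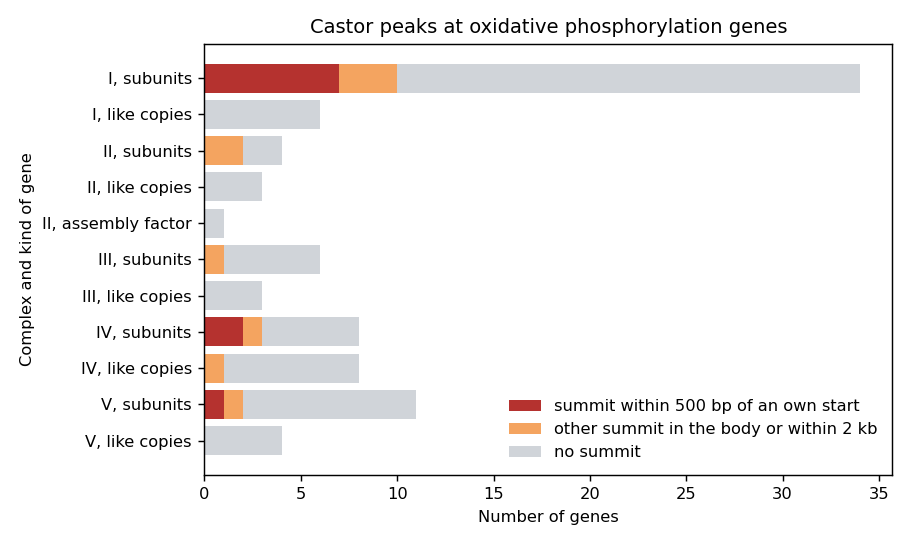
Number of genes (x axis) by complex and kind of gene (y axis), coloured by whether a conservative summit lies within 500 bp of an own start, elsewhere in the body or within 2 kb, or nowhere in that range. Complex I subunits hold 7 of the 10 genes with a summit near an own start, and COX5BL is the lone like copy with a peak.

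Near the transcript starts the picture was similar. A summit lay within 500 bp of an own start in 10 of the 88 genes (11.4%), against 10.7% of all genes. These were 7 complex I genes, 2 of complex IV and 1 of complex V, all of them subunits. None of the 24 like copies had such a peak, and a count of 0 allows a share of up to 12.5% by counting error alone. Complexes II and III had no peak at an own start. When only the gene whose start was nearest could claim a summit, 8 of the 88 genes (9.09%) received a peak, against 11.0% of all genes. That count includes ND-B14.7, a complex I subunit whose body lay 7940 bp from its summit.

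Complex I, the NADH dehydrogenase that starts the chain, held the 2 peaks of highest signal in the set, at ND-24 and ND-ASHI. ND-24, the iron-sulphur subunit at the NADH-oxidising tip, had the peak with the highest signal of the 20, 161 (chrX:17632024-17632333), which ranked 224 in the conservative list. The signal there was 86.6 in the list of replicate 1 and 74.9 in that of replicate 2, a log2 ratio of 0.21, and the peak passed in both, that is, it overlapped a thresholded peak of each replicate's own list. The summit lay 90 bp inside the gene and 132 bp upstream of the start of corolla, a protein of the meiotic synaptonemal complex encoded on the other strand. ND-51, the subunit that binds NADH and its flavin, had a signal of 117 (chr2L:6062717-6063026, rank 440), with 63.4 in replicate 1 and 50.7 in replicate 2. Its summit was 115 bp upstream of the ND-51 start and 117 bp upstream of that of the oppositely oriented CG13994. Both genes code for the NADH-oxidising arm, whose remaining subunit ND-75 had no peak. Of the 7 subunits of the catalytic core, ND-24 and ND-51 were the 2 with a peak (28.6%, interval 8.22 to 64.1%). ND-75, ND-49, ND-30, ND-23 and ND-20 had none. Of the other 27 complex I subunits, 8 had a peak (29.6%, interval 15.9 to 48.5%). The shares of core and other subunits were thus alike, and the 20.1% of all genes lies inside both intervals. The grouping by role was made after the data had been seen.

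ND-ASHI, an accessory subunit of the proton-pumping membrane arm in the mammalian enzyme, had a signal of 153 (chrX:6679217-6679526, rank 253). Its values were 61.7 in replicate 1 and 91.3 in replicate 2, and the peak passed in both. The summit lay 254 bp upstream of the nearest ND-ASHI start and 268 bp upstream of the nearest start of Fum1. Fum1 codes for fumarase, an enzyme of the citric acid cycle, so a single peak was about equally far from starts of both genes. The shortest gap between opposite-strand starts of ND-ASHI and Fum1 was 164 bp, so not all of their starts flank this summit. ND-MWFE, another membrane-arm subunit in mammals, had a signal of 87.8 (chr2R:13158318-13158627), 31.7 in replicate 1 and 55.3 in replicate 2. This peak passed in replicate 2 alone, and its summit was nearer to TppII, a peptidase gene 28 bp away, than to ND-MWFE at 193 bp.

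ND-MNLL, ND-SGDH and ND-B17 are also accessory subunits of the membrane arm in mammals, and their peaks were weaker. ND-MNLL had a signal of 74.7 (chrX:7893702-7894011), 47.0 in replicate 1, where it passed, and 31.8 in replicate 2, where it did not. Its summit lay 59 bp upstream of the start and at the same distance from the overlapping gene CG45089, with the Golgi tether gene p115 at 174 bp on the other strand. ND-SGDH was the member with more than 1 peak. The stronger, with a signal of 66.2 (chr3L:12138642-12138951), lay 213 bp upstream of ND-SGDH and 71 bp from RhoGAP68F. Its values were 31.8 and 41.0 in replicates 1 and 2, and it passed in neither. The weaker, with a signal of 58.1 (chr3L:12136662-12136971), lay beyond the end of the gene, 111 bp from CG5645. ND-B17 had a signal of 65.0 (chr2L:15750960-15751269), 33.3 in replicate 1 and 30.0 in replicate 2, and passed in neither. At 37 bp upstream of the start, with the nearest other start (Mtr4, an RNA helicase of the nuclear exosome pathway) 1148 bp away, it was the own-start peak of the set that shared no other start within 500 bp.

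In 3 further complex I genes the peak sat at a neighbour. ND-B22, a membrane-arm subunit in mammals, lay near a strong peak with a signal of 131 (chr2L:13368964-13369273), 62.8 in replicate 1 and 68.8 in replicate 2, whose summit was 1907 bp past the ND-B22 start and 85 bp from the start of CG31855. ND-B14, a subunit of the peripheral arm in mammals, had its summit 1214 bp upstream and 39 bp from Polr2E, a subunit shared by the nuclear RNA polymerases. The signal was 69.7 (44.6 and 31.9 in replicates 1 and 2), and the peak passed in neither. ND-15, with a long annotated body of 41305 bp, held a summit 14517 bp from its nearest own start but 2 bp from that of CG3164, with a signal of 62.2 (40.8 in replicate 1, 23.3 in replicate 2).

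Complex II, succinate dehydrogenase, had peaks near 2 of its 4 subunits and near neither SdhA nor SdhC. SdhB, the iron-sulphur subunit, had a summit 662 bp past its end and 2208 bp from its start, with a signal of 107 (chr2R:6809679-6809988), 41.0 in replicate 1 and 69.9 in replicate 2. That summit lay 68 bp from the start of CG15237. SdhD, a membrane anchor, had a summit 1344 bp past its end and 2461 bp from its start, with a signal of 134 (chr3R:23757984-23758293), 68.2 in replicate 1 and 78.2 in replicate 2. It lay 122 bp from Hrd3, a gene of the endoplasmic reticulum degradation pathway. Both peaks passed in each replicate, and both were at the neighbour's start.

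In complex III, the cytochrome bc1 complex, the core protein UQCR-C1 was the member with a peak. The signal was 81.8 (chr3R:14893878-14894187), 48.8 in replicate 1 and 37.3 in replicate 2, and it passed in both. The summit was 1646 bp past the end of UQCR-C1, 3802 bp from its start and 79 bp from Dph2, an enzyme of diphthamide synthesis.

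Among its members, complex IV, cytochrome c oxidase, had own-start peaks at COX5A and COX6B. These code for subunits on the matrix side and the intermembrane side of the mammalian enzyme. The subunit gene levy, outside the prefixes, also had one, with a signal of 114 at 165 bp from its start. COX5A had a signal of 94.0 (chr3R:11819374-11819683), 46.2 in replicate 1 and 50.7 in replicate 2, and passed in both. The summit lay 70 bp upstream of the nearest COX5A start and 109 bp from glo, an RNA-binding repressor of translation. COX6B had a signal of 75.3 (chrX:19744243-19744552), 36.5 and 31.7 in replicates 1 and 2, and passed in neither; the starts of CG33932 and Rpp20, a subunit of ribonuclease P, were 33 bp away and that of COX6B was 63 bp away. COX7C, a small membrane subunit, had its summit 1948 bp upstream, with no other start nearer, and a signal of 66.0 (40.0 in replicate 1, 23.5 in replicate 2). The like copy COX5BL had a summit 1556 bp past its end and 2258 bp from its start, but 29 bp from Trmt6, a tRNA methyltransferase subunit. That peak had a signal of 65.1 (30.4 and 33.6 in replicates 1 and 2) and passed in neither.

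Complex V had peaks at 2 of the 11 subunits whose symbol starts with ATPsyn. The alpha subunit blw lies outside that prefix and had a signal of 157 at 121 bp from its start. ATPsynE, a small subunit of the membrane part, had a summit 24 bp upstream of its start, the shortest own-start distance of the set, and the lowest signal of the 20 peaks, 57.5 (chr3R:14326768-14327077). Its values were 24.5 in replicate 1 and 27.2 in replicate 2, and it passed in neither. ATPsynCF6, of the stalk that holds the enzyme head, had a summit 1054 bp upstream and 555 bp from Sec13, a coat protein of secretory vesicles and the nuclear pore. The signal was 68.2, with 45.4 in replicate 1 and 25.0 in replicate 2, a log2 ratio of 0.86 that was the highest of the set.

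**Figure D2:**
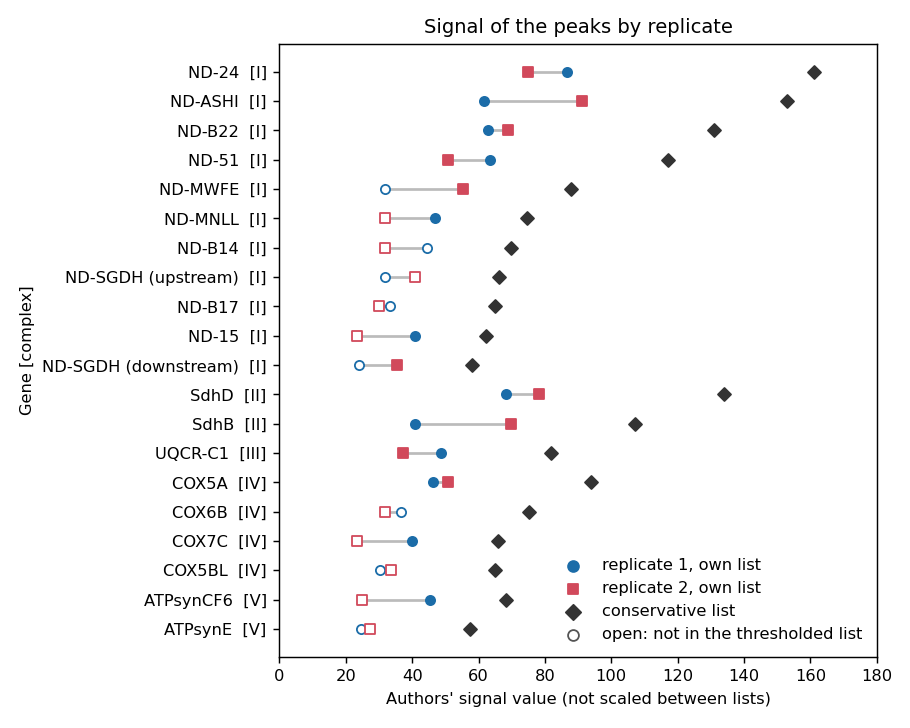
The authors' signal value (x axis) of the 20 peaks by gene and complex (y axis) in the conservative list and in the ranked list of each replicate; open symbols mark values that did not pass in that replicate. The conservative values run from 57.5 at ATPsynE to 161 at ND-24, and the replicate values are from other lists that share no scale with them.

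The median signal over the 19 genes was 75.3 (range 57.5 to 161), against 86.6 over the strongest peaks of all genes with a peak. Taken by complex, the median was 81.2 in complex I, 120 in complex II, 81.8 in complex III, 70.7 in complex IV and 62.9 in complex V. Those of complexes II and III come from summits at other genes' starts. Of the 20 peaks, 9 were above the median of all peaks.

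Replicates differed at these peaks about as much as at peaks in general. Of the 20 peaks, 8 (40.0%) overlapped a thresholded peak of both replicates, 4 (20%) of replicate 1 only, 2 (10%) of replicate 2 only and 6 (30.0%) of neither. Over all peaks on the arms the shares were 41.1%, 17.0%, 14.9% and 27.0%. All 20 were in the pooled list, as were 1723 of the 1879 peaks on the arms. The log2 ratio of replicate 1 to replicate 2 signal had, over the 20 peaks, a median of 0.01 with an SD of 0.51, and ran from -0.80 at ND-MWFE to 0.86 at ATPsynCF6, and 10 peaks were higher in each replicate. Over all peaks the median was 0.02 and the SD 0.51.

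The distance from the strongest summit of a gene to its nearest own start had a median of 254 bp over the 19 genes, against 571.5 bp over all genes with a peak. This order turned in the lists of single replicates, where the medians were 1695 bp for members against 608.5 bp for all genes in replicate 1 and 937.5 bp against 474.5 bp in replicate 2. Under the 2 kb rule the largest possible distance grows with gene length. The median length was 1097 bp over the 88 members, against 2164.5 bp over all genes. The part of gene length in these distances was not tested. In the conservative list the median distance was 203 bp in complex I, 539 bp in complex V and 1009 bp in complex IV. It was 2334.5 bp in complex II and 3802 bp in complex III. The 10 own-start peaks had a median signal of 81.5 and lay from 254 bp upstream to 90 bp downstream of the start, 9 of them upstream, with a median position of -66.5 bp. Among all 1609 pairs of a gene and an own-start peak, 1399 (86.9%) were upstream and the median was -123 bp. The other 10 peaks had a median signal of 69.0, and 8 of them lay 2 to 122 bp from the start of another gene. In 7 of the 20 pairs of gene and peak (35%) the member had the nearest start, against 1702 of 3523 pairs over all genes (48.3%).

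**Figure D3:**
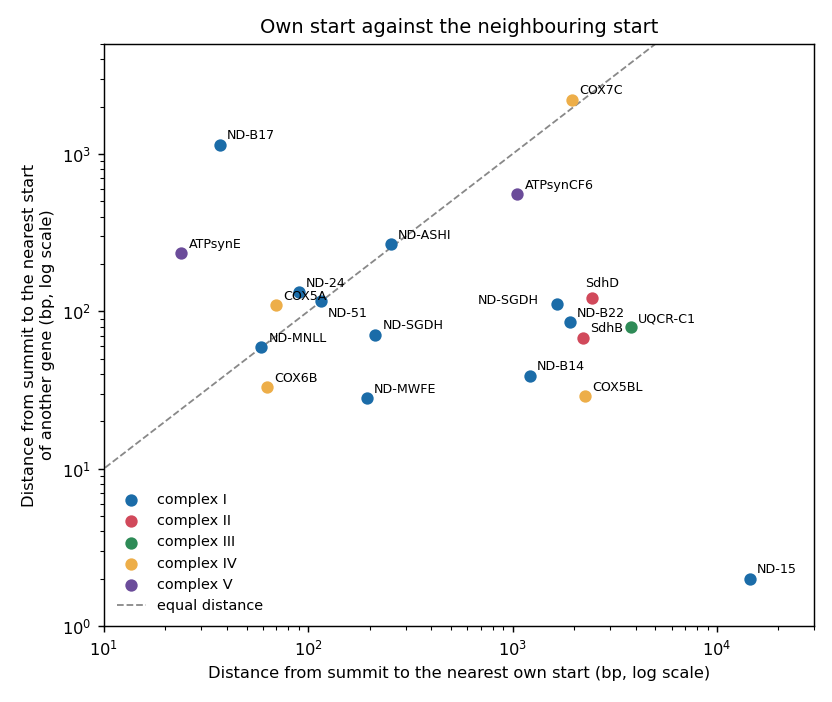
Distance from each of the 20 summits to the nearest own start (x axis, bp, log scale) and to the nearest start of another gene (y axis, bp, log scale), coloured by complex; the dashed line marks equal distance. Points below the line are nearer to another gene, among them every peak of complexes II and III.

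Shared promoters were frequent in this set. An opposite-strand start lay within 1000 bp upstream of an own start in 40 of the 63 subunits (63.5%) and in 4 of the 24 like copies (16.7%), against 36.2% of all genes. Of the 40 divergent subunits, 9 had a summit within 500 bp of an own start (22.5%, interval 12.3 to 37.5%), and of all divergent genes 19.8% did. Of the 23 subunits without such a neighbour, 1 did (4.35%), ND-B17, against 5.52% of all genes without one. Within each arrangement the subunits were thus near the background, and none of the 20 like copies without a divergent neighbour had such a peak, which allows a share of up to 15.0%. In 9 of the 10 members with an own-start peak an opposite-strand gene started within 500 bp of the same summit, against 871 of 1491 genes (58.4%) over the annotation. With the neighbour sought within 500 bp in place of 1000 bp, a setting added after the data had been seen, 9 of 36 divergent subunits (25%) and 869 of 3815 divergent genes (22.8%) had such a peak.

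**Figure D4:**
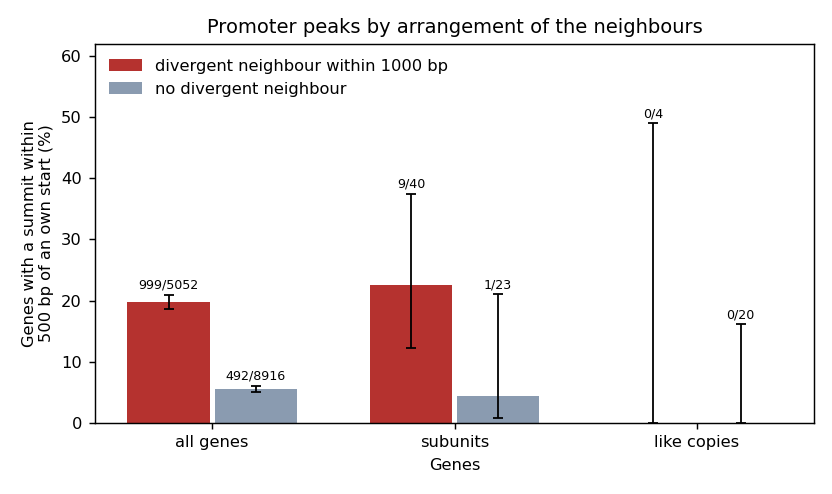
Share of genes with a conservative summit within 500 bp of an own start (y axis, percent) for all genes, subunits and like copies (x axis), with and without an opposite-strand start within 1000 bp upstream; bars are shares, lines are 95% Wilson intervals and the counts stand above them. The subunits reach 22.5% and 4.35%, beside 19.8% and 5.52% for all genes.

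At the edge of the 2 kb rule, COX7C was inside at 1948 bp and UQCR-C1 at 1646 bp from the body to the summit. Just outside lay UQCR-C2, the other core protein of complex III, at 2040 bp (signal 61.9), ATPsynO at 2117 bp (58.0), COX5B at 2381 bp (65.1) and ATPsyngamma at 2481 bp (149). Other rules gave other counts, and the members fell below or above all genes depending on the rule. The body alone gave 3 members (3.41%) against 6.13% of all genes, the body with 500 bp gave 11 (12.5%) against 14.7%, and the body with 5 kb gave 34 (38.6%) against 29.3%. A window of 200 bp around an own start gave 8 members (9.09%) against 8.11%, and a window of 1000 bp gave 10 (11.4%) against 12.3%.

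Other lists added few members. In the pooled list 22 members (25%) had a peak against 22.8% of all genes, and 12 had it within 500 bp of an own start (13.6%) against 12.3%. The 3 members gained were COX5B, ND-42 and SdhC. COX5B, a complex IV subunit, had a pooled signal of 54.3 with the summit 177 bp upstream of its start and 121 bp from IFT52 (30.0 in replicate 1, 22.2 in replicate 2). A second pooled peak there, with a signal of 3.13, had its summit 23 bp from the COX5B start, the nearest start to it. ND-42, an accessory complex I subunit, had 43.4 at 191 bp upstream, with Cchl, the enzyme that attaches haem to cytochrome c, 38 bp away (22.6 and 24.5 in replicates 1 and 2). SdhC, a membrane anchor of complex II, had 66.5 at 1968 bp upstream (45.3 and 20.9), with the start of Tctp nearer at 1570 bp. The list of replicate 1 alone gave 14 members (15.9%) against 14.3%, among them SdhC and ND-39, and 5 at an own start against 7.4%. In that list the ND-39 summit lay 1483 bp from its own start and 75 bp from that of ZnT77C. The list of replicate 2 alone gave 10 members (11.4%) against 14.4%, and 5 at an own start against 7.69%. The upper 50% of the conservative list by signal gave 9 members (10.2%) against 11.9%, and 5 at an own start against 6.26%.

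Below the threshold, the ranked conservative list of 105251 entries was read at the starts of the 78 members without an own-start peak. An entry lay within 500 bp of an own start in 57 of them (73.1%), against 73.4% of the 12477 genes without such a peak, with a median signal of 25.2 (range 7.21 to 54.3) against 23.4. Among subunits 43 of 53 had an entry (median 26.1), and among like copies 14 of 24 (median 20.1, highest 34.1). By complex, the median over subunits with an entry was 25.7 in complex I, 32.9 in complex II, 22.0 in complex III, 35 in complex IV and 30.3 in complex V. None reached 57.5, the weakest signal among the member peaks, and 129 of the 12477 genes (1.03%) did, so that the members were near the share of all genes here too. The highest were COX5B at 54.3, ATPsynC, of the rotor ring, at 45.7, ATPsynCF6 at 43.6, ATPsynF at 43.4, ND-42 at 43.4, ND-23, an iron-sulphur subunit of the catalytic core, at 42.8 and COX7B at 41.1. ATPsynbeta, the catalytic subunit of the ATP synthase, had an entry of 30.3 with a -log10 IDR of 0.47, against the value of 2 needed to pass.

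**Figure D5:**
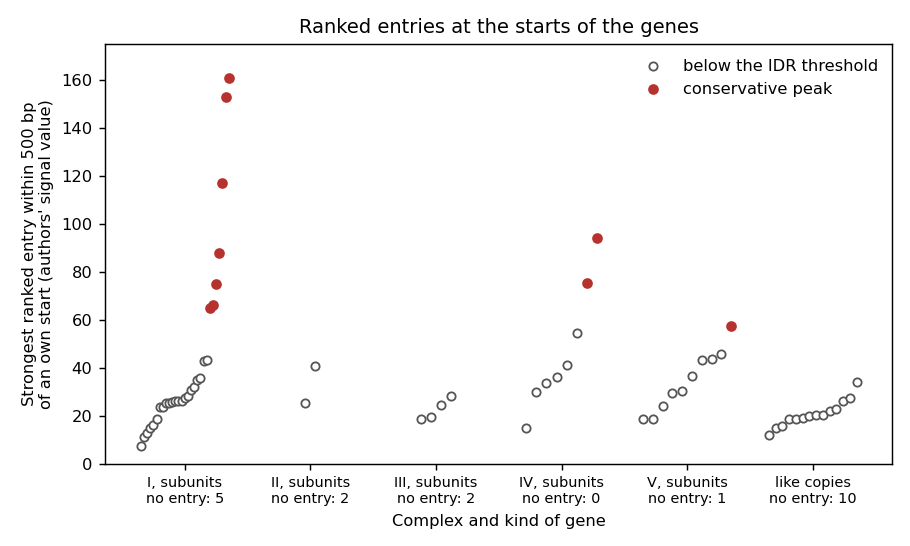
Signal of the strongest ranked entry within 500 bp of an own start (y axis, authors' signal value) for each gene by complex and kind (x axis); filled points are conservative peaks and open points did not pass, and the number without an entry is under each label. The open points end at 54.3 and the filled points start at 57.5.

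The bases around the summits were then searched for fixed words on both strands. GC content within 50 bp of the summit was 32.1% ± 10.1 (SD, 20 windows), from 19.8% at ATPsynCF6 to 55.4% at COX6B, against 35.3% ± 10.6 over all peaks on the arms. TATAAA, the core letters of the TATA box, was found in 8 of the 20 windows (40.0%), against 21.9% of all peaks and 20.2% of windows of the same length at gene starts. AAAAAA was in 7 (35%, against 26.1% of peaks and 19.0% of starts). Within 25 bp of the summit the shares were nearer, with TATAAA in 3 windows (15.0%, against 11.2% of peaks) and AAAAAA in 3 (15.0%, against 13.5%). TATCGA, which is part of TATCGATA and can overlap CGATAG, was in the COX6B window alone, against 9.53% of peaks. GGTCACAC and CAGCTG were each in the ND-B17 window alone, against 1.17% and 4.26% of peaks. CGATAG, added after the data had been seen, was in the windows of ND-MNLL and COX6B, against 6.97% of peaks. None of the 20 windows held TATCGATA (the site of the factor DREF, 2.71% of all peaks), the E-box CACGTG (0.958%), the Ets core CCGGAA (2.29%) or GCGCATGC (0.373%).

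Over whole promoters, taken as 250 bp before to 50 bp after a start, GGTCACAC was in 15 of 63 subunits (23.8%), 1 of 24 like copies (4.17%) and 7.70% of all genes. Among the 10 members with an own-start peak it was in 3, COX5A, ND-B17 and ND-MWFE. TATCGATA was in 9 subunits (14.3%), no like copy and 9.36% of all genes, and CAGCTG in 30.2% of subunits, 8.33% of like copies and 17.7% of all genes. TATAAA was in 61.9% of subunits, 37.5% of like copies and 45.9% of all genes. Not every word followed this order. AAAAAA was in 54.0% of subunits, 70.8% of like copies and 50.6% of all genes, and CACGTG in 3.17%, 8.33% and 4.23%. For CCGGAA the shares were 4.76%, 4.17% and 6.81%, and for CGATAG 19.0%, 16.7% and 19.5%. TATCGA had 33.3%, 25.0% and 27.7%, and GCGCATGC was in no member promoter, against 1.05% of all genes. A match is a description of the letters and not a binding site.

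Genes linked to the same pathway but outside the prefixes were counted in 4 lists. Of 11 further subunits and carriers of the chain, 4 had a peak (36.4%). They were Cyt-c-p and Cyt-c-d, which code for cytochrome c, with signals of 98.4 and 138 (the latter at a summit nearest to CG31808), levy, a complex IV subunit, with 114, and blw, the alpha subunit of ATP synthase, with 246 at a summit 3867 bp from its start and nearest to CycB, and with 157 at another summit 121 bp from its start. Of 11 assembly factors matched among 13 listed, 2 had a peak (18.2%): CIA30, a complex I factor, with a signal of 680 at 106 bp upstream of its start, and Coa8, with 71.7 at a summit 1 bp from CG14818. Of 13 enzymes of the citric acid cycle and pyruvate dehydrogenase, 6 had a peak (46.2%), among them Idh3g (164, 88 bp upstream), Fum1 (153, the peak shared with ND-ASHI) and Pdhb (104, 67 bp upstream). The assembly factor Sdhaf3, which is also among the 88 genes, had none. None of 12 regulators of mitochondrial gene expression had a peak, and a count of 0 allows a share of up to 25%. These shares stand beside the same 20.1% of all genes and were not tested against it.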

How the data were processed

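Castor-GFP chromatin immunoprecipitation was read from peak lists of 2 biological replicates on assembly dm6. Per the deposited README texts, thresholded and ranked lists exist for each replicate and for both combined; the conservative thresholded list was used unless said otherwise. Neither an aligner nor a peak caller is named in the sources used here. Signal is the authors' measure of peak height, not scaled between lists. The IDR is given by the authors as -log10 values of at most 5, and the deposited score column is their scaled IDR, at most 1000 and not used. Each summit was the start plus the deposited summit offset, the authors' other column.

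Genes and starts came from Ensembl release 115, whose arm lengths equal those of dm6. Genes with a summit inside the body or at most 2 kb from it were counted as having a peak. Members and lists were chosen with earlier results of these data known. Every member with a conservative peak was named, and others where the pooled or a replicate's list held a peak, lay just outside 2 kb or led the ranked entries; those in the last 2 classes were picked with their values in view. Of 13 listed assembly factors 11 were matched, 3 of them through the RefSeq names Sdhaf3, Sirup and Coa8. The roles of complex I core subunits were added after the data had been seen. Replicate values are the strongest overlapping entry, of at least 1 bp, in that replicate's ranked list.

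No test was made, since 1 group has nothing to compare. Genes and peaks are not independent replicates. Depth is unknown, and the 95% Wilson intervals and the limit of 3 counts for a count of 0 cover counting error only. Assignment was tested on simulated data. Python 3.11.15, numpy 2.4.6, pandas 2.3.3, scipy 1.17.1 and matplotlib 3.10.9 were used.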

Additional observations from a re-analysis of the deposited data

How the results depend on the processing

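Of 92 values under other settings, 47 were within 1.5 times the reported value, 45 were not and 0 reversed. The 0 was fixed in advance, because the values were counts, distances and signals of members, which cannot change sign. Comparisons with all genes were not among the 92 values, and some of them did turn. Members with a peak, 19 as reported, numbered 14 in the list of replicate 1 (12 of the 19 among them), 10 in that of replicate 2 (all among the 19), 9 with the upper 50% of peaks by signal, 3 with the body alone, 11 with the body and 500 bp, 34 with the body and 5 kb and 8 by the nearest start (7 of the 19 among them). The 10 members with an own-start summit became 5 without either replicate and 5 with the upper 50%. The median start distance of 254 bp became 937.5 bp without replicate 1 and 1695 bp without replicate 2. Over all genes with a peak the values were 571.5, 474.5 and 608.5 bp, so the order of members and all genes turned. The cause of these moves was not tested beyond the settings' own construction, which takes fewer or more peaks or a narrower or wider range. The pooled list, windows of 200 and 1000 bp, the choice of peak per gene and a 50% overlap moved no value of the whole set by over 1.5 times. Within 100 bp of the summit TATAAA was in 11 of the 20 peaks (55.0%, against 35.1% of all peaks) and AAAAAA in 9 (45.0%, against 44.4%). No paired analysis was possible because both samples belong to 1 group. Depth is unknown, so a gene without a peak is not shown to be unbound.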
